A study of Mus musculus with 16 samples.

Results

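Rab GTPases are small membrane switches, and their 59 genes among the 35869 genes of the expression table are described here in sorted mouse microglia. Members were chosen by symbol alone, as Rab followed by a number and at most 1 letter, so regulators, effectors and Rab-like genes stayed out. The rule uses no measured value, though it was set with earlier results of these data known. By the membrane where each protein is best known to act, 7 genes were placed with the early endosome, 11 with recycling, 13 with the late endosome and lysosome, 11 with secretory vesicles, 12 with the ER and Golgi and 5 in a remaining class.

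A Rab protein bound to GTP recruits effectors to a membrane, where they drive budding, transport, tethering and fusion, and hydrolysis of GTP releases it again. Exchange factors load the GTP, GTPase-activating proteins (GAPs) end the active state, and a prenyl tail with its escort and retrieval proteins moves the Rab between membrane and cytosol. In phagocytes such as microglia, Rabs of the early endosome receive engulfed cargo, recycling Rabs return receptors to the surface, late endosomal Rabs lead cargo to the lysosome, and secretory Rabs dock granules at the plasma membrane.

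The study asked how age and uptake of amyloid-β 1-42 (Aβ42) relate to the transcriptome of microglia, the resident macrophages of the brain. Brain cells of wild-type (WT) male C57/Bl6 mice aged 2 months (young) or 18 months (old) were incubated with 2.5 μM fluorescent Aβ42 for 2 h, and live CD45int CD11b+ cells were sorted into those that had taken it up (Aβ42+) and those that had not (Aβ42-). Each age and each sort gave 4 libraries, so the 4 groups held 16 in all. A legend of the study gives each replicate as a pool of 3 mice, while its methods speak of 4 mice per age, and the sample descriptions list the peptide for the Aβ42+ libraries only although the protocol gives it for all. No group without peptide is among these libraries. Same-numbered Aβ42+ and Aβ42- libraries of an age were sorted from 1 pool. The values are given as TPM, reads corrected for gene length with every library brought to an equal sum, so levels of different genes can be compared but the depth per library is unknown.

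Libraries differed in their background, for which the trimmed mean TPM of 1124 olfactory receptor genes together with 327 vomeronasal ones, which microglia are not known to use, was taken. It ran from 0.328 to 11.6 TPM and was highest in old Aβ42+ replicate 3, where the Rab genes summed to 3450 TPM against 5054 to 6626 TPM in the other 15 libraries. Within the old mice it ran from 1.27 to 11.6 TPM in the Aβ42+ sort and from 0.328 to 2.89 TPM in the Aβ42- sort. All 12 microglia markers were present, with sums of 3663 ± 181, 3222 ± 96.7, 2639 ± 423 and 1894 ± 477 TPM (SD, n = 4) in the young Aβ42+, the young Aβ42-, the old Aβ42+ and the old Aβ42- group. The 10 granulocyte and precursor markers summed to 2625 ± 306, 6651 ± 654, 4393 ± 1049 and 7997 ± 1006 TPM (SD, n = 4) in the same order, above the microglia sum in 3 of the 4 groups. None of these 10 was at 0 in any library. Of 5 T or NK cell markers, Nkg7 and Gzma carried most of a sum of 34.4, 477, 55.7 and 394 TPM in that order. Sums of the B cell list lay between 16.3 and 339 TPM, of the monocyte and border macrophage list between 168 and 337 TPM, of the choroid plexus list between 35.6 and 916 TPM, and of the astrocyte, endothelial and oligodendrocyte lists between 9.70 and 108 TPM. The neuron list summed to 31.7 to 370 TPM. Its genes Snap25, Syt1, Rbfox3 and Gad1 lay below the receptor percentile used here in every library, while Slc17a7, Tubb3 and Nefl were above it in all 16 and Stmn2 in 10. In such bulk samples, fewer cells of a type and less RNA per cell cannot be told apart.

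Rab genes of the endosome and of early secretion made up most of the Rab RNA. Early endosome Rabs held 25.8% of the mean Rab sum of 5669 TPM, recycling Rabs 24.0%, ER and Golgi Rabs 21.2%, secretory Rabs 13.8%, late endosome and lysosome Rabs 11.8% and the remaining class 3.48%. The highest mean over 16 libraries was that of Rab1a with 427 TPM, followed by Rab8b with 396, Rab31 with 386, Rab14 with 320 and Rab32 with 290.0 TPM. In all 16 libraries 26 of the 59 genes lay above the 95th percentile of the receptor genes, 27 did so in some libraries, and 6 in none, namely Rab9b, Rab30, Rab17, Rab3c, Rab27b and Rab36. The early endosome class was the most even, with means from 82.9 to 386 TPM and 6 of 7 genes above that percentile in all libraries. The secretory class was the least even, with means from 1.21 TPM for Rab27b to 396 TPM for Rab8b.

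**Figure D1:**
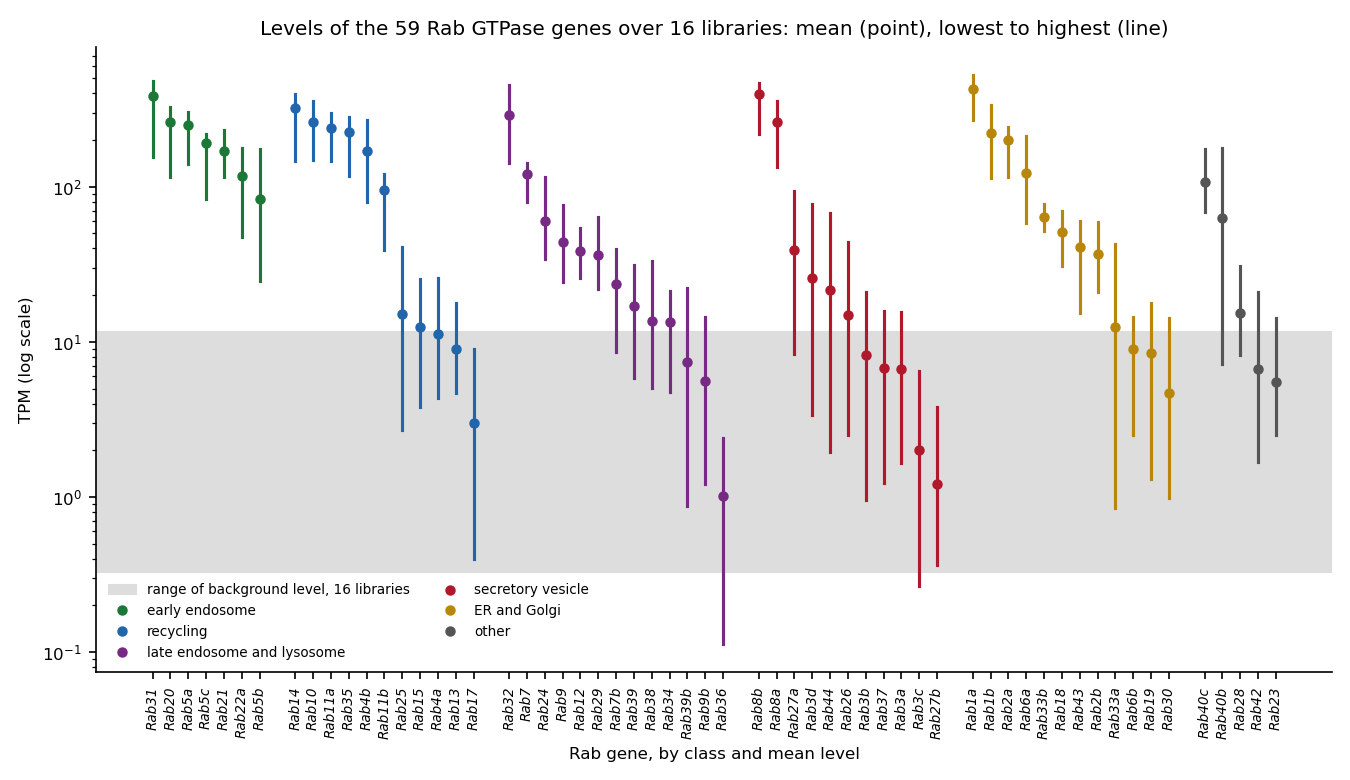
TPM of the 59 Rab genes on a log axis, by class and then by mean level. Points are means over 16 libraries, lines run from the lowest to the highest library, and the grey band spans the background level of the libraries, 0.328 to 11.6 TPM. Early endosome genes sit above the band, while the secretory class runs from Rab8b at 396 TPM down into it.

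The largest differences between the sorts were those of the secretory genes Rab44 and Rab3d, at both ages. Rab3d, Rab27a and Rab44 were higher in Aβ42- than in Aβ42+ libraries of both ages, and in old mice Rab37 was higher too. Outside that class Rab5b, Rab6a, Rab24 and Rab28 were higher in the Aβ42- sort of old mice, and Rab26 and Rab34 were lower. With age, 4 Rab genes were higher in old than in young Aβ42- libraries, while no Rab gene was called with age in Aβ42+ libraries. Each comparison was tested with limma on log2(TPM + 1), without a block for the pool unless stated. The genes tested were those that reached 1 TPM in 4 or more of the 8 libraries compared. Called means a p, adjusted by Benjamini-Hochberg over those genes, of no more than 0.05. The comparisons share groups, so they are not independent of each other.

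In young mice 3 of 59 Rab genes were called between the sorts, all higher in Aβ42- cells, against 1.67% of 33281 genes tested, 1.43% higher and 0.243% lower. The median log2 fold change was 0.06 over the Rab genes and 0.04 over all genes. With the pool as a block the count was 3 of 59 as well, against 1.84% of all genes. The groups did not overlap for 9 Rab genes higher and 2 lower, where 4.05% and 1.60% of all genes did so. With median-of-ratios factors no Rab gene was called, where 0.226% of all genes were called. There 5 of 59 Rab genes had an unadjusted p under 0.05, and 1319 of all 33117 genes did.

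In old mice 10 of 59 Rab genes were called between the sorts, 8 higher and 2 lower in Aβ42- cells, against 13.0% of 32429 genes, 4.74% higher and 8.23% lower. The median of all genes was -0.89, so that a gene with no shift in TPM stood above most genes, and that of the Rab genes was 0.22. The groups did not overlap for 15 Rab genes higher and 5 lower, where 8.12% and 13.8% of all genes did so. With the pool as a block 39 of 59 were called, 18 higher and 21 lower, against 57.9% of all genes. Of all 32429 genes, 3478 were called higher and 15298 lower in that fit. Of the 21 lower, 19 were not above the receptor percentile in all libraries, and the background level was itself lower in the Aβ42- sort of this age. No lower value was called under other scalings, which gave 5 higher with median-of-ratios factors, 2 with quantile normalization and 7 after the background was subtracted. Those calls were 8.62%, 3.39% and 13.0% of the Rab genes tested, against 4.03%, 1.61% and 11.5% of all genes. With the background level as a covariate no Rab gene was called. There 7 of 59 Rab genes had an unadjusted p under 0.05, and 3493 of all 32429 genes did. Leaving out old Aβ42+ replicate 1, 2, 3 or 4 gave 32, 2, 6 or 0 calls, and leaving out old Aβ42- replicate 1, 2, 3 or 4 gave 0, 0, 21 or 1. In those settings 55.1%, 0.418%, 5.92% and 0.282% and then 0.297%, 0.217%, 37.0% and 0.546% of all genes were called, so that the 32 and 21 Rab genes (54.2% and 36.8%) came near the share of all genes. Rab3d and Rab44 were the pair called without old Aβ42+ replicate 2, and Rab3d was the one called without old Aβ42- replicate 4.

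With age, 4 of 58 Rab genes were called in Aβ42- libraries, all higher in old mice, against 2.15% of 31982 genes, 1.73% higher and 0.416% lower. Rab27b did not pass the filter on low values there. The median log2 fold change was 0.04 over the Rab genes and -0.56 over all genes. The groups did not overlap for 11 Rab genes higher and 5 lower, where 5.96% and 5.07% of all genes did so. Quantile normalization gave 4 higher and 1 lower and subtraction of the background 9 higher and 1 lower, while median-of-ratios factors and the background covariate gave no call, with 18 and 24 Rab genes at an unadjusted p under 0.05. The calls under quantile normalization and subtraction were 8.62% and 18.2% of the Rab genes tested, against 3.21% and 9.36% of all genes. With those factors and the covariate 0.0377% and 0.0813% of all genes were called. An unadjusted p under 0.05 was found there for 6209 of 31789 and 5335 of 31982 genes. Leaving out young Aβ42- replicate 1 gave 28 calls (48.3% of the Rab genes tested, against 42.0% of all genes) and leaving out old Aβ42- replicate 3 gave 19 (33.9% against 14.5%). Leaving out young Aβ42- replicate 2, 3 or 4 or old Aβ42- replicate 1, 2 or 4 left 0, where at most 0.0537% of all genes were called.

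In Aβ42+ libraries no Rab gene of 59 was called with age by limma, and 0.0268% of 33578 genes were called. An unadjusted p under 0.05 was found for 7 Rab genes and for 3096 of all genes. Rab genes had a median log2 fold change of 0.09, with 33 above and 26 below 0, against 0.38 over all genes. That balance turned with the scaling, to 20 above and 39 below 0 with median-of-ratios factors. It was 26 against 33 once the libraries were quantile normalized, and 23 against 29 once the background was subtracted. Without old Aβ42+ replicate 1 it was 28 and 31. Of the 33 positive genes 27 were not above the receptor percentile in all libraries, while 20 of the 26 negative genes were. The groups did not overlap for 2 Rab genes higher and 3 lower, where 2.85% and 2.65% of all genes did so. The difference of the age effects between the sorts, an interaction term over all 16 libraries, was called for no Rab gene and for 0.0116% of 34492 genes. This interaction had an unadjusted p under 0.05 for 8 Rab genes and for 6928 of all genes. With the pool as a block it was called for 19 of 59, against 36.9% of all genes, 5 of them with a larger and 14 with a smaller log2 value of old against young in Aβ42- than in Aβ42+ cells. Of those 14, 13 were not above the receptor percentile in all libraries. Without the block, no Rab gene was thus shown to differ in its age effect between the sorts.

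**Figure D2:**
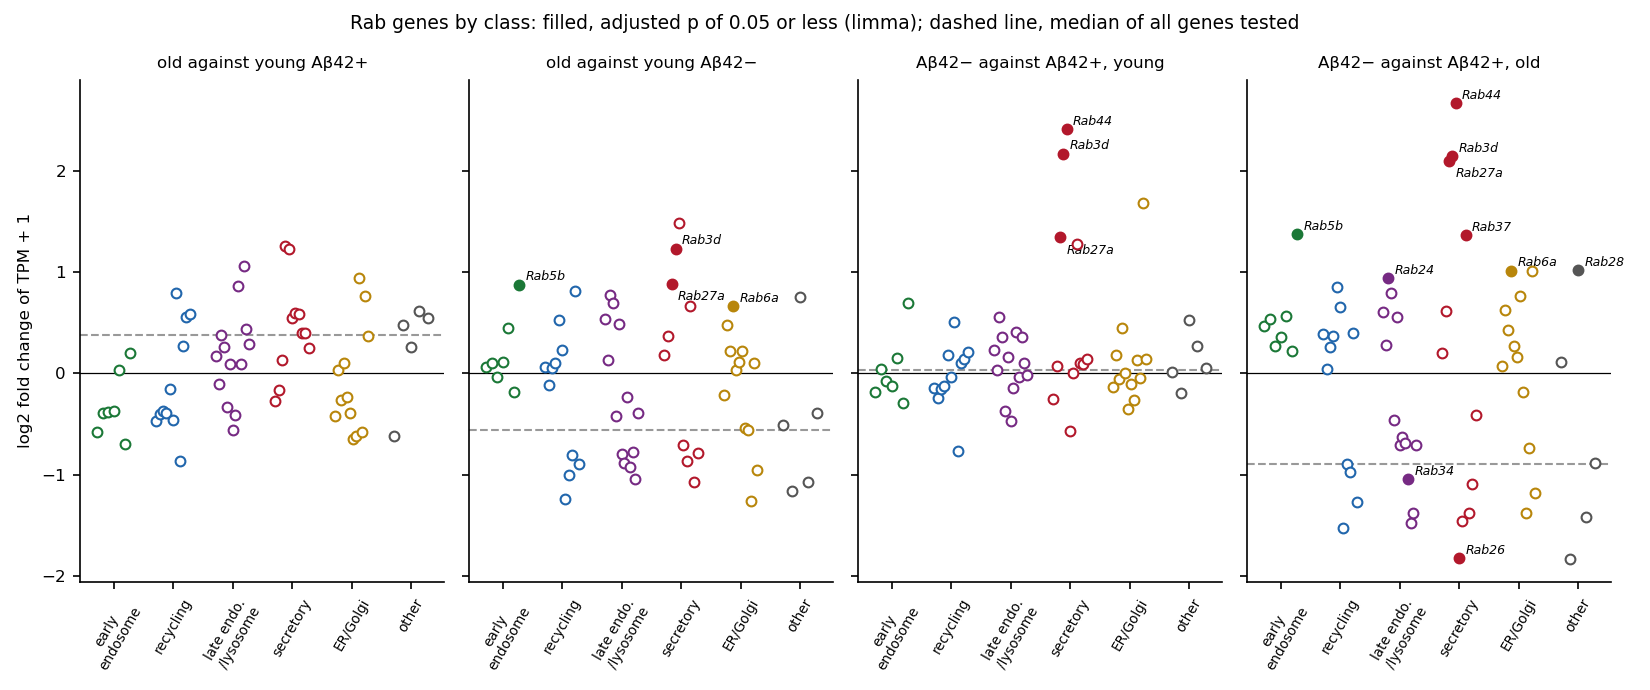
Log2 fold change of TPM + 1 for each Rab gene tested, by class, in the 4 comparisons. Filled points are called genes (limma), and the dashed line is the median of all genes tested. The secretory gene Rab44 leads both comparisons of the sorts, where it reached 2.41 in young and 2.67 in old mice, and in old mice the dashed line lies at -0.89.

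Stretches before a transcript start are shown for the 4 genes called with age and for Rab15, whose groups stood apart in every comparison. Promoters of members whose log2 fold changes with age had opposite signs can thus be read side by side. The stretches come from RefSeq promoter windows on GRCm38.p6, the mm10 build of the study. Each is the 250 bases before a transcript start, 5′ to 3′ on the strand of the gene, and capitals mark matches on either strand to GGGCGG, the box of Sp and KLF factors, or to GAGGAA, a core of PU.1 sites. Rab3d lies at chr9:21918184-21918433 on the minus strand, Rab27a at chr9:73044560-73044809 on the plus strand (the first of 2 windows), Rab5b at chr10:128696269-128696518 on the minus strand, Rab6a at chr7:100607336-100607585 on the plus strand and Rab15 at chr12:76822525-76822774 on the minus strand (the first of 4 windows). The Rab15 stretch lies mostly within the span of the gene, chr12:76797960-76822759. Those of Rab3d, Rab5b and Rab6a reach a few bases into their genes.
Rab3d: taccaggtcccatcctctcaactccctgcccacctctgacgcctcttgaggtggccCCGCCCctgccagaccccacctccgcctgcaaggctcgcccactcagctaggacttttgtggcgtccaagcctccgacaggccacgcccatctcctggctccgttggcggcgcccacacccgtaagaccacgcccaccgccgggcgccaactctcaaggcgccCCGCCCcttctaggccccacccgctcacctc
Rab27a: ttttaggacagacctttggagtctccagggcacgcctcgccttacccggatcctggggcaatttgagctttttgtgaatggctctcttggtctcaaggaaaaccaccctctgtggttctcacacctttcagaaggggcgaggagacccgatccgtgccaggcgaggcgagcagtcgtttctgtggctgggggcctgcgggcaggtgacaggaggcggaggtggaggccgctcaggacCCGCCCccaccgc
Rab5b: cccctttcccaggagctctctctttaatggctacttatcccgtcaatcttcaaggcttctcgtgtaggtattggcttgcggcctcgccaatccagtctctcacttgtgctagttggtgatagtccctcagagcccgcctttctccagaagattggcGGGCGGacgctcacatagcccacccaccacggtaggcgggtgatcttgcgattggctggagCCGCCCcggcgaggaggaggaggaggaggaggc
Rab6a: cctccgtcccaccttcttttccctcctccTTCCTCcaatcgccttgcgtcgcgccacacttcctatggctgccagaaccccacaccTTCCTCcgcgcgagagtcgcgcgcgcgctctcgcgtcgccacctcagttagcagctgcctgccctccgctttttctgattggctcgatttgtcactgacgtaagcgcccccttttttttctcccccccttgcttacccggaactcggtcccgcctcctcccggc
Rab15: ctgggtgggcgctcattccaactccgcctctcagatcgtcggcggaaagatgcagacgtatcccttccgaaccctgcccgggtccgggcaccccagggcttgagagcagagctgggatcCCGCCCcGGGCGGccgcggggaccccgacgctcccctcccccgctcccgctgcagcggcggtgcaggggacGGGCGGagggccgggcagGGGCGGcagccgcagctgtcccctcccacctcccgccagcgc
Rab15 held 4 matches to GGGCGG, Rab3d and Rab5b 2 each, Rab27a 1 and Rab6a none, while Rab6a held 2 to GAGGAA. Over all 27025 windows 32.9% held GGGCGG, and 33 of the 48 Rab genes with a window did (68.8%), with a median GC content of 60.6% against 52% in all windows. GAGGAA was in 23.1% of all windows and in 6 of 48 Rab windows, the E-box CACGTG in 6.05% and in 4, and the C/EBP word TTGCNNAA in 9.55% and in 3. No match overlapped another in the 5 windows shown. Such matches describe letters and are not sites of binding.

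Early endosome Rabs were high, and Rab5b was the one called in any comparison, joined by Rab21 between the old sorts with the pool as a block (0.57, adjusted p = 0.0168 in limma). Rab31, which works between the trans-Golgi and early endosomes, had 479, 463, 350.5 and 476 TPM in young Aβ42+ replicates 1 to 4, 422, 412, 349 and 365 in young Aβ42-, 406, 349, 154 and 335 in old Aβ42+ and 399, 418, 394 and 407 in old Aβ42-. The groups overlapped throughout, and the lowest value was that of the library with the highest background. Its log2 fold change with age in Aβ42+ cells was -0.58 ± 0.29 (SE, adjusted p = 0.577 in limma). Rab20, known from the maturation of phagosomes in macrophages, had 295, 276, 217 and 288 TPM in young Aβ42+, 279, 267, 257 and 299.9 in young Aβ42-, 272, 229.8, 116 and 234 in old Aβ42+ and 282, 299.9, 274 and 325 in old Aβ42- libraries. Old Aβ42- libraries all exceeded old Aβ42+ libraries, yet the log2 fold change of 0.54 ± 0.26 was not called (adjusted p = 0.126 in limma). An antisense gene shares 20.9% of its read-length stretches.

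Rab5b, an isoform of the Rab5 switch that drives fusion of early endosomes, stood out in this class. It had 54.1, 42.6, 43.7 and 50.1 TPM in young Aβ42+, 103, 78.3, 64.0 and 69.4 in young Aβ42-, 90.8, 74.5, 24.8 and 52.1 in old Aβ42+ and 150.3, 175, 106 and 149 in old Aβ42- libraries. Aβ42- libraries exceeded Aβ42+ libraries of the same age without overlap, and old exceeded young Aβ42- libraries. Means rose from 60.6 ± 28.6 to 145 ± 28.3 TPM (SD, n = 4) between the old sorts, with a log2 fold change of 1.37 ± 0.36 and an adjusted p of 0.0420 in limma, which ran from 0.00695 to 0.590 over the alternatives. The difference of 0.69 ± 0.17 between the young sorts was not called (adjusted p = 0.104 in limma), but it was after quantile normalization (0.0147), subtraction of the background (0.0282) or with the background covariate (0.00758), over a range of 0.00758 to 1. With age in Aβ42- cells Rab5b rose by a log2 fold change of 0.88 ± 0.19 (adjusted p = 0.0498 in limma, 0.0101 to 0.171 over the alternatives).

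The 3 Rab5 genes summed to 528 TPM in young Aβ42+, 527 in young Aβ42-, 444 in old Aβ42+ and 601 in old Aβ42- libraries on average. Rab5b held 9.04% ± 0.721 of that sum in young Aβ42+, 14.8% ± 1.73 in young Aβ42-, 13.1% ± 2.85 in old Aβ42+ and 24.0% ± 3.25 in old Aβ42- libraries (SD, n = 4). Rab5a had its lowest share, 42.1% ± 2.47, in old Aβ42- libraries, against 49.2% to 51.9% on average in the other groups. The share of Rab5c lay between 33.9% and 39.1% on average. Of the read-length stretches of Rab5b transcripts, 9.59% also occur in Gm13991.

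**Figure D3:**
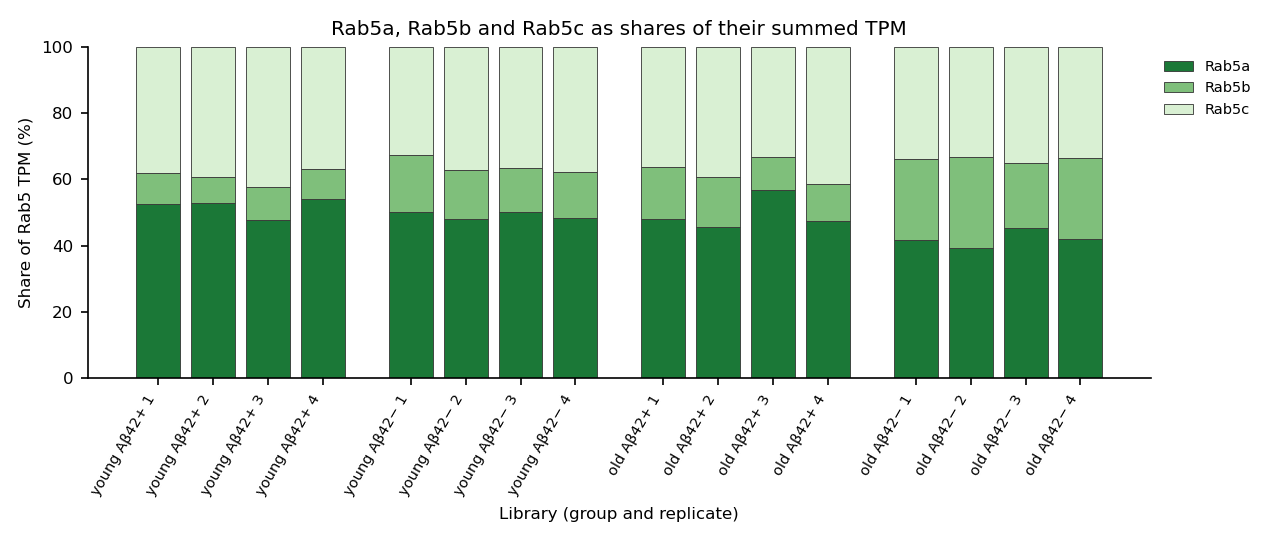
Rab5a, Rab5b and Rab5c as percent of their summed TPM in each of the 16 libraries, by group and replicate. The share of Rab5b is smallest in the young Aβ42+ libraries, 8.04% to 9.72%, and largest in the old Aβ42- libraries, 19.5% to 27.4%.

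Recycling Rabs were led by Rab14 and Rab10, and none of the 11 was called in any comparison. Rab14, which links early endosomes with the trans-Golgi, had 398, 361, 300.4 and 364 TPM in young Aβ42+, 365, 332, 285 and 304 in young Aβ42-, 352, 289, 145 and 286 in old Aβ42+ and 339, 323, 337 and 338 in old Aβ42- libraries. Rab10, a Rab of basolateral and endocytic recycling, had 358, 309, 243 and 325 TPM in young Aβ42+, 306, 261, 216 and 254 in young Aβ42-, 286, 249.7, 149 and 267 in old Aβ42+ and 245, 246, 212 and 248 in old Aβ42- libraries. Both genes overlapped between the groups of each comparison, and their largest log2 fold changes were those with age in Aβ42+ cells, -0.47 ± 0.26 and -0.40 ± 0.23 (adjusted p = 0.593 and 0.596 in limma). With the pool as a block in old mice, 6 of 11 recycling genes were called, 2 higher and 4 lower in Aβ42- cells, where 57.9% of all genes were.

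Rab15, a recycling Rab best known from neurons, was low and stepped down from young Aβ42+ to old Aβ42- libraries. It had 22.4, 25.3, 15.8 and 21.5 TPM in young Aβ42+, 11.5, 15.0, 10.6 and 11.02 in young Aβ42-, 11.1, 10.5, 12.8 and 9.84 in old Aβ42+ and 4.42, 3.79, 9.25 and 5.60 in old Aβ42- libraries. The groups did not overlap in any of the 4 comparisons. That alone fixes the exact two-sided permutation p at 0.0286 in each, the smallest that 4 against 4 libraries allow, so this p adds nothing. Between the sorts it also leaves out the pairing of libraries by pool. Rab15 was named for its fold changes in these same data. The log2 fold changes were -0.87 ± 0.23 and -0.999 ± 0.31 with age in Aβ42+ and Aβ42- cells and -0.76 ± 0.21 and -0.89 ± 0.32 between the young and the old sorts. None was called by limma, with adjusted p of 0.416, 0.105, 0.201 and 0.0745 in that order, but with the pool as a block the difference between the old sorts passed at 0.0198. Under quantile normalization that difference turned to 0.09 (adjusted p = 0.855 in limma). Rab15 lay above the receptor percentile in 10 of 16 libraries, and the microglia marker sum had the same ends, young Aβ42+ highest and old Aβ42- lowest, and its part in the result was not tested.

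Late endosome and lysosome Rabs were led by Rab32, a Rab of lysosome-related organelles, and by Rab7, the switch of late endosomes on their way to lysosomes. Rab32 had 227, 225, 226 and 235 TPM in young Aβ42+, 274, 264, 254 and 279.5 in young Aβ42-, 325, 339, 141 and 276 in old Aβ42+ and 386, 453, 306 and 428 in old Aβ42- libraries. Old exceeded young Aβ42- libraries without overlap, with means of 393 ± 64.6 and 268 ± 11.3 TPM (SD, n = 4). The log2 fold change of 0.54 ± 0.13 missed the threshold (adjusted p = 0.0576 in limma). It passed after subtraction of the background (adjusted p = 0.0414 in limma) and with a replicate block, but not with the other scalings or the covariate. Young Aβ42- libraries exceeded young Aβ42+ libraries without overlap too, by a log2 fold change of 0.23 ± 0.08 (adjusted p = 0.373 in limma). Between the old sorts Rab32 was called only with the pool as a block, where its adjusted p was 0.0375 against 0.122 without it.

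Rab7 spread 1.77-fold from the lowest to the highest library, against 3.21-fold for Rab32. It had 120.2, 118, 109 and 121 TPM in young Aβ42+, 113, 117, 122 and 129 in young Aβ42-, 126, 128, 79.6 and 108 in old Aβ42+ and 117, 137, 141 and 133 in old Aβ42- libraries. Its groups overlapped in all 4 comparisons, with log2 fold changes from -0.11 ± 0.17 with age in Aβ42+ cells to 0.28 ± 0.18 between the old sorts. A pseudogene and an antisense gene share 9.80% of its read-length stretches.

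Rab24, linked to autophagy, was called higher and Rab34, which positions lysosomes, lower between the old sorts. Rab24 had 63.9, 60.4, 34.3 and 42.8 TPM in old Aβ42+ and 115, 114, 70.01 and 88.2 in old Aβ42- libraries, without overlap, a log2 fold change of 0.94 ± 0.25 (adjusted p = 0.0420 in limma, 0.00483 to 0.554 over the alternatives). The antisense gene Prelid1 lies over 62.4% of its exon bases, and whether reads were counted by strand is not stated in the sources used here. Rab34 had 20.3, 13.3, 13.6 and 13.9 TPM in young Aβ42+, 13.1, 15.1, 15.98 and 14.8 in young Aβ42-, 15.7, 12.5, 21.4 and 16.1 in old Aβ42+ and 6.87, 4.73, 10.99 and 7.77 in old Aβ42- libraries. The old Aβ42- libraries lay below all others, and between the old sorts Rab34 fell by 1.05 ± 0.30 on the log2 scale (adjusted p = 0.0487 in limma, 0.00668 to 0.497 over the alternatives). It lay above the receptor percentile in 13 of 16 libraries. Rab12, chosen after its values were seen, did not overlap in any comparison, with means of 49.2 ± 5.24, 37.6 ± 2.17, 38.8 ± 4.44 and 27.8 ± 1.69 TPM (SD, n = 4) in the order of groups just used. Between the old sorts it was not called (adjusted p = 0.0743 in limma, 0.0348 with the pool as a block, and 0.0262 to 0.513 over the alternatives), and there its log2 fold change of -0.46 turned to 0.30 with median-of-ratios factors.

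Secretory Rabs held the 3 genes called between the sorts of both ages. Rab44, a large Rab of granule-bearing blood cells, had 3.18, 2.06, 3.53 and 1.95 TPM in young Aβ42+, 33.7, 18.9, 15.1 and 11.3 in young Aβ42-, 16.2, 9.42, 3.37 and 5.51 in old Aβ42+ and 61.5, 67.6, 32.3 and 57.6 in old Aβ42- libraries. All Aβ42- libraries exceeded the Aβ42+ libraries of their age. Rab44 was above the receptor percentile in 8 of 16 libraries and in none of the young Aβ42+ group, where 3 of its 4 values lay under the background level, so the size of that fold rests on values near the background. The means differed 7.36-fold in young and 6.35-fold in old mice, with log2 fold changes of 2.41 ± 0.38 (adjusted p = 0.0132 in limma, 0.00413 to 0.165 over the alternatives) and 2.67 ± 0.42 (0.0143, and 0.0014 to 0.160). With age Rab44 had a log2 fold change of 1.48 ± 0.34 in Aβ42- cells, which missed the threshold (adjusted p = 0.0537 in limma) and where the groups overlapped. That age difference was called under 5 alternatives, among them the replicate block, and not under 12. The call between the young sorts was lost without young Aβ42+ replicate 2 (adjusted p = 0.0507), young Aβ42+ replicate 4 (0.0528) or young Aβ42- replicate 2 (0.0654 in limma).

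Rab3d, known from secretory granules of exocrine and mast cells, had 3.68, 4.72, 7.50 and 3.39 TPM in young Aβ42+, 30.8, 19.8, 27.2 and 20.9 in young Aβ42-, 21.3, 11.3, 8.90 and 10.9 in old Aβ42+ and 67.2, 76.8, 38.9 and 57.7 in old Aβ42- libraries. Its groups did not overlap in any of the 4 comparisons. Between the sorts it rose 5.11-fold in young mice, a log2 fold change of 2.17 ± 0.29 (adjusted p = 0.00545 in limma), and 4.58-fold in old mice, 2.14 ± 0.30 (adjusted p = 0.0106). Over the alternatives these adjusted p ran from 0.000738 to 0.0647 and from 0.000771 to 0.0938. With age it rose by 1.23 ± 0.23 in Aβ42- cells (adjusted p = 0.0424 in limma, 0.00594 to 0.162 over the alternatives), and its 1.26 ± 0.38 in Aβ42+ cells, the highest value there, was not called (adjusted p = 0.436). It was above the receptor percentile in 10 of 16 libraries, Rab3b in 5, Rab3a in 3 and Rab3c in none. It held 87.3% ± 10.9 of the summed Rab3 TPM in old Aβ42- against 23.0% ± 5.19 in young Aβ42+ libraries (SD, n = 4). In the young Aβ42+ group the background itself lay between 0.773 and 6.89 TPM, near its level.

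Rab27a, which docks granules and lysosome-related organelles for release, had 20.04, 19.2, 13.7 and 11.9 TPM in young Aβ42+, 49.5, 41.1, 39.2 and 37.9 in young Aβ42-, 35.4, 20.4, 8.33 and 14.9 in old Aβ42+ and 85.6, 94.2, 58.9 and 77.3 in old Aβ42- libraries. The sorts did not overlap at either age, and old exceeded young in Aβ42- but not in Aβ42+ cells. It rose 2.59-fold between the young sorts (1.34 ± 0.20, adjusted p = 0.0109 in limma) and 4.00-fold between the old sorts (2.10 ± 0.37, adjusted p = 0.0186). With median-of-ratios factors the first came to 0.774, the highest over its alternatives, and the second ran from 0.00133 to 0.240. With age the log2 fold change was 0.88 ± 0.17 in Aβ42- cells (adjusted p = 0.0424 in limma, 0.0061 to 0.162 over the alternatives) and 0.13 ± 0.40 in Aβ42+ cells (adjusted p = 0.865), the latter -0.29 with median-of-ratios factors, -0.22 after quantile normalization and -0.55 after subtraction of the background. The interaction for Rab27a was 0.76 ± 0.45 (adjusted p = 0.272 in limma), so its age effects were not shown to differ between the sorts.

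**Figure D4:**
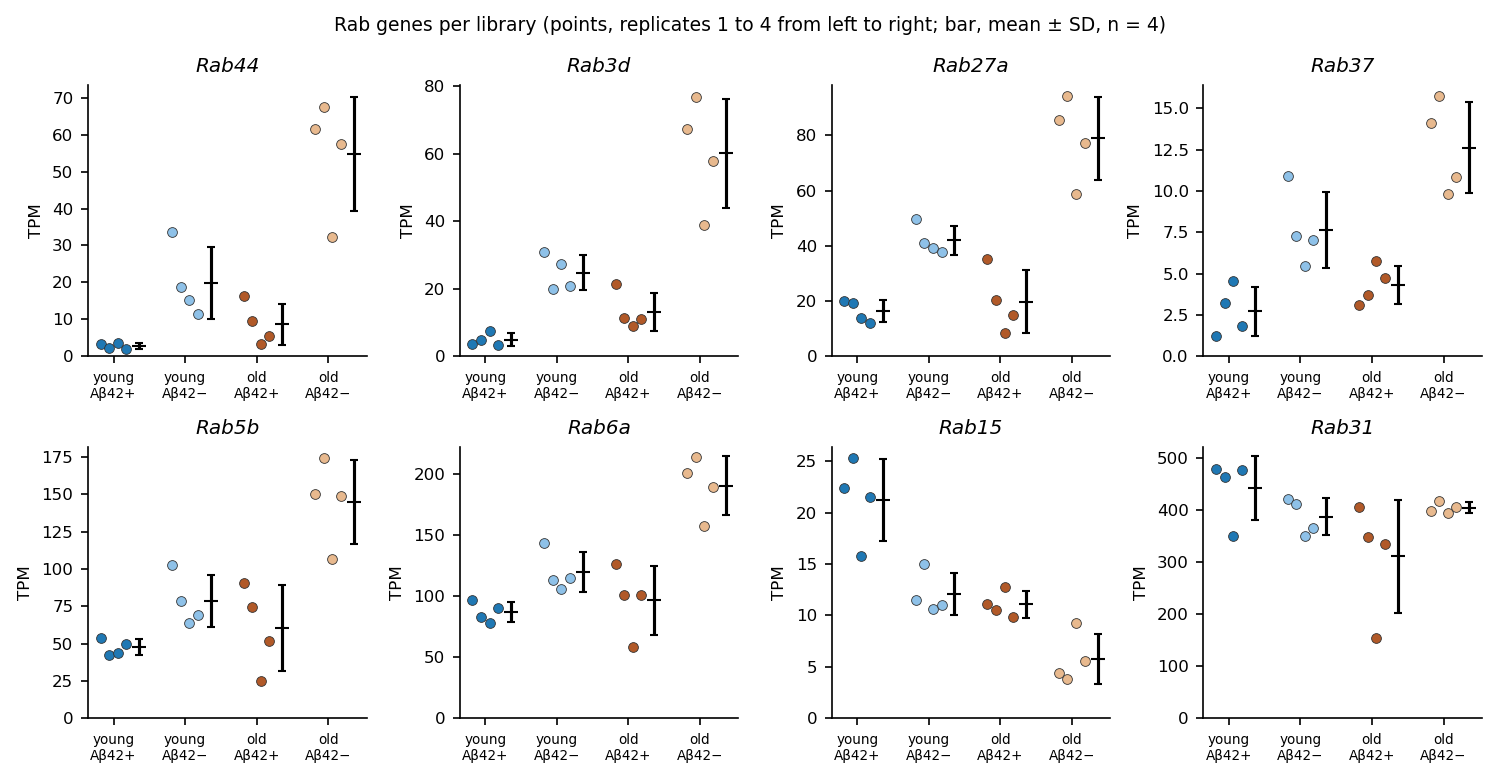
TPM of 8 Rab genes in each library, by group, with points for replicates 1 to 4 from left to right and a bar for mean ± SD (n = 4). Rab44, Rab3d and Rab27a are higher in every Aβ42- library than in the Aβ42+ libraries of the same age, Rab15 is highest in young Aβ42+ and lowest in old Aβ42-, and Rab31 overlaps throughout.

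Rab37, a Rab of regulated exocytosis, was low and followed the same order. It had 1.23, 3.20, 4.57 and 1.82 TPM in young Aβ42+, 10.9, 7.28, 5.46 and 7.004 in young Aβ42-, 3.08, 3.69, 5.74 and 4.72 in old Aβ42+ and 14.1, 15.7, 9.83 and 10.8 in old Aβ42- libraries, above the receptor percentile in 5 of 16. The sorts did not overlap at either age, and the call was made in old mice (1.36 ± 0.31, adjusted p = 0.0335 in limma, 0.0107 to 0.214 over the alternatives) and not in young mice (1.28 ± 0.41, adjusted p = 0.321). Rab26, also of secretory granules, was called lower in old Aβ42- cells (-1.82 ± 0.49, adjusted p = 0.0439 in limma, 0.00627 to 0.552 over the alternatives) although the groups overlapped, with 8.89, 27.1, 43.8 and 20.8 TPM in old Aβ42+ and 3.86, 3.34, 11.2 and 5.74 in old Aβ42- libraries. The order of its values was that of the background level in the old Aβ42+ libraries, whose part in the result was not tested.

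The abundant secretory genes Rab8a and Rab8b were not called. Rab8b had 468, 426, 385 and 458 TPM in young Aβ42+, 433, 378, 312 and 338 in young Aβ42-, 453, 407, 219 and 405 in old Aβ42+ and 395, 434, 375 and 441 in old Aβ42- libraries. Its relative Rab8a, which like Rab8b carries vesicles from the Golgi and endosomes to the surface, had 274, 232, 202 and 252, then 288, 238, 226 and 259.6, then 268, 248, 135 and 228, and then 327, 359, 295 and 325 TPM in the same order. Rab8b overlapped between the groups of all 4 comparisons. Rab8a was higher in old Aβ42- cells than in old Aβ42+ cells and in young Aβ42- cells without overlap, with log2 fold changes of 0.61 ± 0.23 and 0.37 ± 0.11 that were not called (adjusted p = 0.0773 and 0.0928 in limma, the first at 0.0320 with the pool as a block).

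Markers of other cells also differed between the sorts, as Rab44, Rab3d and Rab27a did at both ages and Rab37 in old mice. The granulocyte and precursor sum lay between 2330 and 3054 TPM in young Aβ42+, 5963 and 7389 in young Aβ42-, 2960 and 5222 in old Aβ42+ and 7045 and 9312 TPM in old Aβ42- libraries. Of its 10 genes, 9 were called higher in the Aβ42- sort of young mice and 5 in that of old mice, while of 12 microglia markers none was called between the sorts of either age. Of the 5 T or NK cell markers, 2 were called higher in the Aβ42- sort at each age. Among the 6 monocyte and border macrophage markers 2 were called lower in that sort at each age, and 1 higher in young mice. Between the old sorts 2 of 7 neuron, 1 of 4 astrocyte and 1 of 3 choroid plexus markers were called lower in Aβ42- cells. Among 5 endothelial markers 1 was called higher and 1 lower there. With age in Aβ42- cells 4 of the 12 microglia markers were called lower and none of the 10 granulocyte markers was called. Elane averaged 26.1 TPM in young Aβ42+, 425 in young Aβ42-, 126 in old Aβ42+ and 657 in old Aβ42- libraries. The order of its group means was that of Rab44, Rab3d, Rab27a and Rab37, and among others of Rab5b, Rab6a, Rab24 and Rab28. The part of these cells in the differences of all these Rab genes was not tested.

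**Figure D5:**
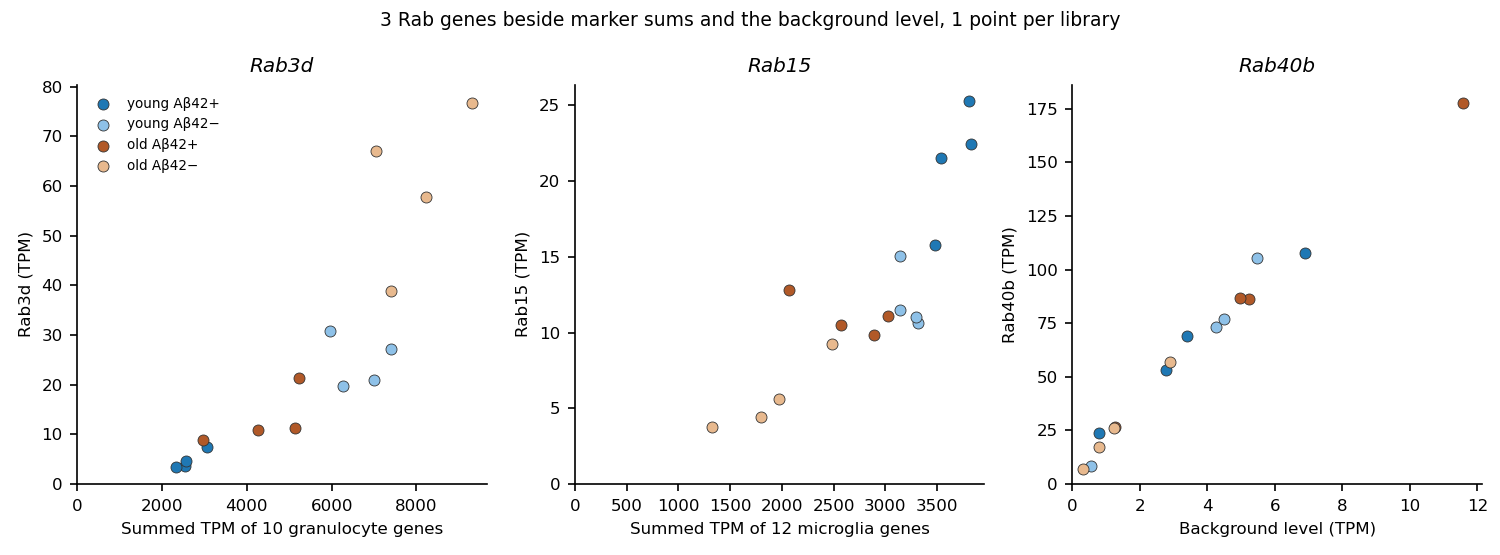
3 Rab genes in TPM against a library measure, 1 point per library, coloured by group. Rab3d is set against the summed TPM of 10 granulocyte genes, Rab15 against that of 12 microglia genes and Rab40b against the background level, and the library with the highest background, 11.6 TPM, also has the highest Rab40b, 178 TPM.

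ER and Golgi Rabs were led by the Rab1 pair, which carries cargo from the ER to the Golgi. Rab1a had 522, 521, 437 and 499 TPM in young Aβ42+, 463, 458, 427 and 449 in young Aβ42-, 442, 398, 271 and 384 in old Aβ42+ and 374, 359, 438 and 384 in old Aβ42- libraries. Rab1b had 229, 167, 152 and 199, then 240.0, 181, 199 and 218, then 247, 204, 115 and 217, and then 333, 335, 222 and 284 TPM in the same order. Groups of both genes overlapped in all 4 comparisons, and the share of Rab1b in their sum went from 27.2% ± 2.76 (young Aβ42+) to 42.9% ± 6.63 (old Aβ42-, SD, n = 4 each). Between the old sorts Rab1b differed by a log2 fold change of 0.62 ± 0.26 (adjusted p = 0.0949 in limma, 0.0207 with the pool as a block).

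Rab6a, which runs transport within and out of the Golgi, was the called member of this class. It had 96.8, 83.2, 77.96 and 90.1 TPM in young Aβ42+, 143, 113, 106 and 115 in young Aβ42-, 126, 101, 58.3 and 101 in old Aβ42+ and 201, 213, 157 and 189 in old Aβ42- libraries. Both sorts and both ages of Aβ42- cells were apart without overlap, and Rab6a rose by a log2 fold change of 1.01 ± 0.24 between the old sorts and 0.67 ± 0.13 with age in Aβ42- cells (adjusted p = 0.0348 and 0.0450 in limma). Over the alternatives these ran from 0.00472 to 0.455 and from 0.010 to 0.164. The difference of 0.45 ± 0.13 between the young sorts was not called (adjusted p = 0.206 in limma), but it was after quantile normalization (0.0120), subtraction of the background (0.0385) or with the background covariate (0.00897), over a range of 0.00897 to 1. Exons of the antisense gene Mrpl48 cover 19.0% of its exon bases. Rab6b, its relative known from neurons, went the other way, with 14.5, 13.4, 9.75 and 10.6 TPM in young Aβ42+, 13.4, 11.5, 11.1 and 10.3 in young Aβ42-, 7.12, 6.98, 8.77 and 7.94 in old Aβ42+ and 4.02, 2.49, 6.22 and 4.81 in old Aβ42- libraries. Old libraries lay below young libraries of the same sort without overlap, and its -1.26 ± 0.30 in Aβ42- cells, the lowest value with age there, was not called (adjusted p = 0.0599 in limma). That age difference was called under 5 alternatives, among them the replicate block, and not under 12.

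In the remaining class Rab40b and Rab40c, Rabs with a SOCS box that joins them to ubiquitin ligases, were highest. Rab40c had 167, 136, 91.4 and 119.6 TPM in young Aβ42+, 175, 132, 109 and 102 in young Aβ42-, 85.7, 82.1, 68.5 and 91.4 in old Aβ42+ and 90.1, 76.6, 87.2 and 101 in old Aβ42- libraries. It was lower in old than in young Aβ42- libraries without overlap but not called (-0.51 ± 0.18, adjusted p = 0.136 in limma). In Aβ42+ cells the groups overlapped (-0.62 ± 0.20, adjusted p = 0.463). Rab40b had 23.9, 68.9, 108 and 53.3 TPM in young Aβ42+, 8.64, 73.4, 105 and 76.8 in young Aβ42-, 26.8, 86.3, 178 and 86.9 in old Aβ42+ and 7.21, 17.5, 57.0 and 26.0 in old Aβ42- libraries. It was 15.4 to 30.9 times the background level in every library, although its own values spread 24.7-fold. Its log2 fold change between the old sorts, the lowest among the members (-1.83 ± 0.65, adjusted p = 0.0722 in limma, 0.00399 with the pool as a block), came to 0.05 with the background level as a covariate.

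Rab28, a Rab of cilia and photoreceptors, was called in that class. It had 13.1, 11.98, 11.3 and 10.3 TPM in old Aβ42+ and 29.6, 30.9, 15.5 and 25.8 in old Aβ42- libraries, without overlap, a log2 fold change of 1.02 ± 0.25 (adjusted p = 0.0384 in limma, 0.00703 to 0.435 over the alternatives). In young mice it had 9.94, 8.28, 10.2 and 9.996 TPM in Aβ42+ and 16.6, 12.7, 13.3 and 14.7 in Aβ42- libraries, also without overlap and not called (0.53 ± 0.21, adjusted p = 0.538 in limma).

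Genes that load, switch off, escort or read Rabs were taken from a list of 120 genes in the table, in the same fits. Between the young sorts 3 of 117 tested were called, all higher in Aβ42- cells, and between the old sorts 17 of 115, 15 higher and 2 lower, with list medians of -0.10 and 0.29 on the log2 scale. With age 5 of 116 were called in Aβ42- cells, all higher, and none of 117 in Aβ42+ cells by limma, with 23 at an unadjusted p under 0.05. Of all 33578 genes tested in Aβ42+ cells, 3096 had such a p. Against the shares of all genes called, 1.67%, 13.0%, 2.15% and 0.0268%, the list came to 2.56%, 14.8%, 4.31% and 0%.

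The same 3 machinery genes were called between the sorts of both ages. Tbc1d10c, a GAP that acts on Rab35, averaged 4.83 ± 1.98 TPM in young Aβ42+ and 31.7 ± 11.7 in young Aβ42-, and 12.2 ± 5.08 in old Aβ42+ and 65.2 ± 16.7 in old Aβ42- libraries (SD, n = 4). Dennd3, an exchange factor for Rab12, averaged 7.49 ± 3.00, 25.2 ± 4.56, 14.3 ± 4.13 and 61.1 ± 16.9 TPM in the same order. Lrrk2, a kinase whose substrates are Rabs, averaged 4.92 ± 1.86, 21.95 ± 9.75, 13.3 ± 6.36 and 58.4 ± 16.9 TPM. Their group means ran in the order of those of Elane as well, and the part of other cells in them was not tested. The log2 fold changes were 2.47, 1.67 and 1.91 in young mice and 2.35, 2.01 and 2.08 in old mice in that order. Of Rab27a effectors, Unc13d, which primes granules for fusion and was chosen after its values were seen, rose from 8.20 ± 2.15 to 30.9 ± 9.30 TPM between the old sorts (1.77 ± 0.29, adjusted p = 0.0155 in limma), while Myrip, which ties Rab27a to myosin, fell from 11.7 ± 6.13 to 2.67 ± 2.08 TPM (-1.86 ± 0.49, adjusted p = 0.0423). With age in Aβ42- cells Tbc1d8 (1.29 ± 0.28), the Rab7 GAP Tbc1d2 (1.25 ± 0.17), Dennd3 (1.21 ± 0.24) and the Rab7 effector Plekhm1 (0.90 ± 0.18) were called higher, with adjusted p between 0.0336 and 0.0495 in limma.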

How the data were processed

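RNA of 16 sorted microglia libraries was sequenced from a directional polyA kit. Per the labels and the methods, the authors trimmed 85-base single reads (Trim Galore 0.4.2, cutadapt 1.9.1), aligned them to mm10 (STAR 2.5.2a), removed duplicates (Picard 1.89), counted them per RefSeq gene (featureCounts) and deposited TPM values, the sole unit used. Strand use in counting is not stated in the sources used here, and the depth behind a TPM value is unknown. Removal of duplicates of single reads can lower the highest values.

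log2(TPM + 1) was fitted with limma 3.58.1 (trend, R 4.3.3) on the 8 libraries of each comparison, over genes with 1 TPM or more in at least 4 libraries, two-sided, with Benjamini-Hochberg adjustment over all genes tested. The interaction used all 16 libraries. Single values were compared by exact permutation, 4 against 4. The scripts were tested on simulated data. Fold changes are on the log2(TPM + 1) scale and understate those of low genes.

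Same-numbered Aβ42+ and Aβ42- libraries of an age are sorts of 1 pool by the protocol, and fits with the pool as a block are given where they change a call. Their residuals correlated at 0.437 to 0.635 for replicates 1 and 3 and at -0.04 to 0.06 for replicates 2 and 4. Replicates of a group are separate pools, so p-values of the age comparisons measure the spread between pools. Residuals of same-numbered young and old libraries correlated too, at 0.413 to 0.593 for replicates 1 and 3. Age fits without a block leave that out. Between the sorts and for the interaction, fits without the block took both libraries of a pool as independent. Their p-values leave that pairing out.

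The background of a library is the mean TPM of receptor genes after 10% was trimmed at each end. Genes given with the value of every library were the 2 most abundant of each class, every called member (where over 8 were called, the 8 of largest log2 fold change whose mean reached 5 TPM and whose groups did not overlap) and the highest and lowest log2 fold change of each comparison. At most 4 machinery genes a comparison were named. Rab12, Rab21, Rab24, Rab26 and Unc13d were named after their values were seen. Members, classes, lists and tests were chosen with earlier results of these data known. Alternatives were other scalings, filters and pseudocounts, the background as a covariate, all libraries in 1 fit, the block, and each library left out. Read-length stretches shared between genes were sought in GENCODE transcripts.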

Additional observations from a re-analysis of the deposited data

Results flagged for a closer look

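In 5 of 88 groups of 4 libraries examined for the named genes, 1 library lay far from the other 3 by Dixon's ratio of gap to range, and chance flags about 1 group in 20. Rab31 had 350.5 TPM in young Aβ42+ replicate 3 against 463 to 479 in the others of its group. Rab14 had 323 TPM in old Aβ42- replicate 2 against 337 to 339. Rab10 had 212 TPM in old Aβ42- replicate 3 against 245 to 248. Rab34 had 20.3 TPM in young Aβ42+ replicate 1 against 13.3 to 13.9. Rab28 had 8.28 TPM in young Aβ42+ replicate 2 against 9.94 to 10.2.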

How the results depend on the processing

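The counts of called Rab genes moved with the processing, and the causes were not tested. With age in Aβ42- cells (4), the count was 0 with median-of-ratios factors or the background covariate, 10 with the background subtracted or a mean of at least 5 TPM, 2 with no filter or a pseudocount of 0.1 TPM, 3 in 1 fit of all 16 libraries (1 higher, 2 lower), and 12 with a replicate block (10 higher, 2 lower) and 0 to 28 with 1 library left out. Of all genes, 9.36% were called with the background subtracted, 10.8% with that mean, 2.73% in 1 fit and 12.2% with the block. The Rab counts there were 18.2%, 19.2%, 5.08% and 20.7% of those tested, and the 28 were 48.3% against 42.0%. With no filter and the pseudocount, 3.39% and 3.45% of the Rab genes were called against 1.20% and 1.33% of all genes. Between the young sorts (3) it was 0 with median-of-ratios factors, 5 with quantile normalization or the covariate and 6 with the background subtracted. For quantile normalization, the covariate and subtraction that was 8.47%, 8.47% and 11.1% of the Rab genes, against 2.13%, 3.20% and 3.63% of all genes. Between the old sorts (10) it was 5, 2 and 0 with median-of-ratios factors, quantile normalization and the covariate. It was 16 with a mean of at least 5 TPM, 6 with the other pseudocount and 18 in 1 fit. The replicate block gave 39, 18 higher and 21 lower, where 3478 of all genes were called higher and 15298 lower. With 1 library left out the count was 0 to 32. Of all genes, 4.03%, 1.61% and 0.0463% were called with those factors, quantile normalization and the covariate. The 16, 6, 18, 39 and 32 were 29.6%, 10.2%, 30.5%, 66.1% and 54.2% of the Rab genes tested. All genes came to 23.3%, 7.99%, 20.6%, 57.9% and 55.1% there. The interaction went from 0 to 19 with the replicate block, where 36.9% of all genes were called. For the age comparisons no source states what a number shared by both ages means. The codes in the sample titles, though, run through all 4 groups of replicate 1 first, then through those of replicates 2, 3 and 4. Residuals of same-numbered young and old libraries correlated at 0.413 to 0.593 for replicates 1 and 3, and at -0.06 to 0.03 for replicates 2 and 4.

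Machinery genes called with age in Aβ42- cells (5) came to 0 with median-of-ratios factors or the covariate, 18 with the background subtracted, 2 with no filter or the other pseudocount, 15 with the mean filter, 11 in 1 fit, 21 with the replicate block and 0 to 39 with 1 library left out. The 18, 15, 11, 21 and 39 were 16.5%, 15.2%, 9.32%, 18.1% and 33.6% of the list tested. All genes came to 9.36%, 10.8%, 2.73%, 12.2% and 42.0% there. With no filter and the other pseudocount, 1.67% and 1.72% of the list were called against 1.20% and 1.33% of all genes. Between the young sorts (3) they came to 0 with median-of-ratios factors, 6 with quantile normalization or the background subtracted, 9 with the covariate, 5 with the mean filter or in 1 fit and 1 to 4 with 1 library left out. Between the old sorts (17) they came to 10, 6 and 0 with median-of-ratios factors, quantile normalization and the covariate, 29 in 1 fit, 48 with the replicate block and 1 to 44 with 1 library left out. The 10, 6, 29, 48 and 44 were 8.62%, 5.08%, 24.6%, 41.7% and 38.3% of the list tested. All genes came to 4.03%, 1.61%, 20.6%, 57.9% and 55.1% there. The list thus fell below all genes with the block and in the fit that gave 44. With age in Aβ42+ cells they came to 0 to 1 with 1 library left out, the 1 without old Aβ42+ replicate 3. In that fit 0.135% of all genes were called.

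Of 424 recomputed values of 25 single fold changes, 417 kept their direction. The 7 that turned were Rab27a with age in Aβ42+ cells (-0.29 with median-of-ratios factors, -0.22 with quantile normalization, -0.55 with the background subtracted, and -0.20 to 0.46 with 1 library left out), Rab40b between the old sorts (0.054 with the covariate) and Rab15 there (0.094 with quantile normalization). The median of the Rab genes relative to that of all genes, with age in Aβ42- cells, turned to -0.034 with quantile normalization. Between the sorts, the block also brought Rab6b of old mice past the threshold (adjusted p = 0.0369 in limma), and the interactions of Rab40b (0.0168), Rab34 (0.0173), Rab26 (0.0330), Rab6a (0.0369) and Rab21 (0.0382). It ended no call of a Rab gene between the sorts.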
